A study of Mus musculus with 6 samples.

Results

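The cytosolic and mitochondrial heat shock chaperones were followed in embryonic mouse hearts with and without the muscle isoform of pyruvate kinase. They were taken by name, as every gene of the count table whose symbol opens with Hspa, Hspb, Hspd, Hspe, Hsph, Hsp90a, Dnaja, Dnajb or Dnajc and a number, and the chaperones *Hspa5*, *Hspa13*, *Dnajb9*, *Dnajb11*, *Dnajc3* and *Dnajc10* of the endoplasmic reticulum (ER) were left out. This gave 57 of the 13809 genes in the table, and all 57 entered the test. The rule itself uses names and no expression value, though it was set with earlier results of these data known. By family they comprise 9 HSP70 genes, 3 HSP110 genes, 2 HSP90 genes, the HSP60 and HSP10 pair, 6 small heat shock genes, 4 DNAJA, 7 DNAJB and 23 DNAJC genes, and *Hspb11*, which carries the small heat shock prefix but encodes the ciliary transport protein IFT25. The name rule also took in J-domain genes whose proteins sit in other places: by their known location 27 members are cytosolic, 9 mitochondrial, 7 sit in the ER or another membrane, and 14 are elsewhere.

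Total RNA freed of ribosomal RNA was sequenced from hearts at embryonic day 18.5 (E18.5), with 3 wildtype (WT) libraries and 3 pkm1-knockout (KO) libraries. The knockout is a short CRISPR deletion in the exon of *Pkm* that only the Pkm1 transcript uses. It is carried in every cell of the body, so an effect on the heart muscle cell itself and an effect of the rest of the embryo cannot be told apart. The study's discussion adds that PKM2, the other isoform from *Pkm*, also went down, maybe as a secondary effect. It therefore allows that the phenotype may involve more than the loss of PKM1. The labels call the tissue heart, and the study describes it as ventricular; no treatment is named for either group, and whether 1 library holds 1 embryo or several is not given in the sources used here.

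Heat shock proteins keep other proteins folded. HSP70 binds exposed stretches of an unfolded client while it turns over ATP, J-domain proteins (DNAJ) bring the client and start that turnover, HSP110 releases the spent nucleotide, HSP90 takes over late folding steps, and small heat shock proteins hold clients without using ATP. In mitochondria, *Hspa9* and the HSP60 and HSP10 chamber do the corresponding work on imported proteins. In heart muscle these proteins look after the contractile filaments, and many of their genes are switched on in stressed cells by heat shock factors, which bind the heat shock element, a repeat of GAA and its inverse TTC spaced by a pair of bases.

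The 250 bases before the transcript start are shown for 6 of the members whose results are given below, and each printed window holds a marked motif. These members are the inducible HSP70 pair, the 3 closely related DNAJB genes that moved in opposite directions, and the HSP60 gene. The upstream sequences of the HSP70 pair are almost the same. The sequences are from RefSeq on GRCm38.p6 and read 5′ to 3′ on the strand of the gene. Capitals mark a paired heat shock element, GAANNTTC or TTCNNGAA, or the CCAAT box, CCAAT or ATTGG on the other strand, which is the site of the factor NFY that the study is about. The windows lie at chr17:34972157-34972406 (minus strand) for *Hspa1a*, chr17:34959239-34959488 (minus) for *Hspa1b*, chr3:152193846-152194095 (minus) for *Dnajb4*, chr4:42949617-42949866 (plus) for *Dnajb5*, chr8:83607925-83608174 (plus) for *Dnajb1* and chr1:55087933-55088182 (minus) for *Hspd1*.
Hspa1a: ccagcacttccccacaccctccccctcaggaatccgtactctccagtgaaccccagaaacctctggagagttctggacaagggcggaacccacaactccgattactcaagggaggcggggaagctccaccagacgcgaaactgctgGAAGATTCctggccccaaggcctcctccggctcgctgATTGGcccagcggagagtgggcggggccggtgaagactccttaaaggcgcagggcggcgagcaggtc
Hspa1b: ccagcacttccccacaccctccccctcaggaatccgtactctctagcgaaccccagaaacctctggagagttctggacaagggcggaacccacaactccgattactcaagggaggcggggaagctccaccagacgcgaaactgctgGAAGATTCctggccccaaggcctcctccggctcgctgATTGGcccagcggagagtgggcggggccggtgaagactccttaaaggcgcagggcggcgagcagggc
Dnajb4: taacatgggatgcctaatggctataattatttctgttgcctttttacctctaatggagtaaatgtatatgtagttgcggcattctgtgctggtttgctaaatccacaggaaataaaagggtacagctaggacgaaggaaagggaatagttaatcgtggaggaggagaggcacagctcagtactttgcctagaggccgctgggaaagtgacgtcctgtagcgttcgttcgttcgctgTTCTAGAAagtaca
Dnajb5: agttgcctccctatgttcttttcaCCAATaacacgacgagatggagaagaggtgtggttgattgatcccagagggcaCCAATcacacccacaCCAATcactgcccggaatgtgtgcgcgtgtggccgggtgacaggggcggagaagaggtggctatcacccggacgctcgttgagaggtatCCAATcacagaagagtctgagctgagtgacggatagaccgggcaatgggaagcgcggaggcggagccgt
Dnajb1: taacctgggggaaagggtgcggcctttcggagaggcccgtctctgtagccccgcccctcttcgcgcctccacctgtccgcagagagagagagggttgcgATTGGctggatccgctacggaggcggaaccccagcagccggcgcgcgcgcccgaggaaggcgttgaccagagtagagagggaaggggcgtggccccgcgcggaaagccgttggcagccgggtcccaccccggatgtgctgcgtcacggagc
Hspd1: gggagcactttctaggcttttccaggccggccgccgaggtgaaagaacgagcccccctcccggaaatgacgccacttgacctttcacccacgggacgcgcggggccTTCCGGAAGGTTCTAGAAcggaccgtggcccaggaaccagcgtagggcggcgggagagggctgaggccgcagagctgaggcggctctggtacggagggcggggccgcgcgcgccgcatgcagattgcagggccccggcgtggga

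The windows of *Hspa1a* and *Hspa1b* were identical at 247 of 250 positions, and both held GAAGATTC starting 104 bases and a CCAAT box on the other strand starting 67 bases before the transcript start. The printed *Dnajb4* window held TTCTAGAA starting 14 bases before the start and no CCAAT box, while the printed *Dnajb5* window held 4 CCAAT boxes and the printed *Dnajb1* window 1, both without a paired heat shock element. In *Hspd1*, 3 paired elements overlapped each other in the run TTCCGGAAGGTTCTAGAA. *Dnajb4*, *Dnajb1*, *Dnajb5* and *Hspd1* also have other starts in the table, whose windows hold no paired heat shock element, and the windows of *Dnajb4* and *Hspd1* shown are those that hold one. Across the 46 members with a RefSeq window (250 bases before to 50 after the start; several starts for some genes), 14 had a paired heat shock element on either strand, 30.4% of the members against 17% of the 27025 genes in the table of windows. By call in the comparison described below, they were 7 of 13 lower, 2 of 5 higher and 5 of 28 other members. The longer heat shock element with 3 such units, which contains the paired form, was in *Dnajb6*, *Hspd1*, *Hspe1* and *Hsph1*, against 0.662% of all genes. The elements of *Hspd1* and *Hspe1* are the same stretch read on opposite strands. That stretch, and the almost identical windows of *Hspa1a* and *Hspa1b*, are counted once for each gene in these shares. A CCAAT box was in 16 of the 46 members (34.8%, against 41.1% of all genes), namely in 5 of 13 lower, 3 of 5 higher and 8 of 28 other members. *Hspb7*, whose mean level fell more than that of any other member, held neither motif in its window, which is not printed. These matches describe letters, not binding. *Dnajc11*, *Dnajc12*, *Dnajc18*, *Dnajc2*, *Dnajc30*, *Dnajc5*, *Hsp90aa1*, *Hsp90ab1*, *Hspa8*, *Hspa9* and *Hspb2* have no window in the table.

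Levels are given as CPM, the count of a gene per 1000000 counts of its library's TMM-scaled total, and fold changes as log2 of KO over WT with the standard error (SE) of the fit to 3 libraries per group. All adjusted p-values below come from the quasi-likelihood test of edgeR, adjusted by Benjamini-Hochberg over the 13804 genes tested, and a gene is said to rise or fall where that value was under 0.05. The libraries held 15597756 to 19875546 counts in WT and 15567624 to 18577404 in KO. On these totals, before TMM scaling, 3 counts correspond to 0.151 to 0.193 per 1000000 counts. *Pkm*, the targeted gene, whose count covers all its isoforms, was at 1294, 1296 and 1366 CPM in WT and 547, 530.3 and 549 CPM in KO, a log2 fold change of -1.28. WT c stood apart from the other WT libraries: the chi-square per degree of freedom over all genes was 3.24 and 3.76 against WT b and WT a, 1.56 between WT a and WT b, and 1.62 to 1.88 among the KO libraries. The 3 WT libraries held transcripts of all 4 Y-linked genes examined and the 3 KO libraries none, while *Xist* was high only in KO, so genotype and sex cannot be told apart; no member lies on X or Y. All 15 early response genes examined (*Fos*, *Egr1*, *Atf3* and others) fell in KO, with a summed level of 2328 to 2532 CPM in WT and 420 to 425 CPM in KO. Of the cell type markers, 5 of 7 cardiomyocyte genes fell and 1 rose (summed 120000 to 123600 CPM in WT, 113600 to 115100 CPM in KO), and 3 of 6 atrial genes rose (594.8 to 601.1 CPM in WT, 1006 to 1030 CPM in KO). Of the others, 3 of 6 endothelial, 2 of 6 fibroblast and 1 of 6 immune markers fell, 2 of 4 epicardial and 1 of 2 erythroid markers rose, and smooth muscle markers split 1 lower and 1 higher of 4. In bulk tissue, fewer cells of a type and less RNA per cell cannot be told apart.

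Of the 57 chaperone genes, 15 fell and 6 rose in KO hearts, while 36 did not pass the test. The 21 calls are 36.8% of the members, against 30.3% of all genes tested. Of all genes, 15.7% fell and 14.6% rose. The counts by family and for the heat-responsive genes below rest on too few genes to be read against these shares. The number that rose changed when 1 library was left out: it was 3 without WT b, 3 without KO c and 10 without WT c. Of all genes, 1581, 1479 and 2013 rose in these fits, beside 2011 with all 6 libraries. The changes were mostly small. *Hspa1a*, *Dnajb4*, *Hspa1b* and *Hspa1l* fell by at least 1.5-fold, and 0 members rose by as much; of all genes 6.19% passed at that size, 3.2% lower and 2.99% higher. The median log2 fold change of the members was -0.04, beside 0.0017 for all genes. Their groups of libraries did not overlap for 20 members lower and 9 members higher in KO, against 21.4% and 21% of all genes (42.4% in both directions). Summed over the 57 genes, the level was 7418 to 7724 CPM in WT and 6972 to 7060 CPM in KO. *Hspb7* and *Hspa8* alone made up 74.2% of that difference.

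**Figure D1:**
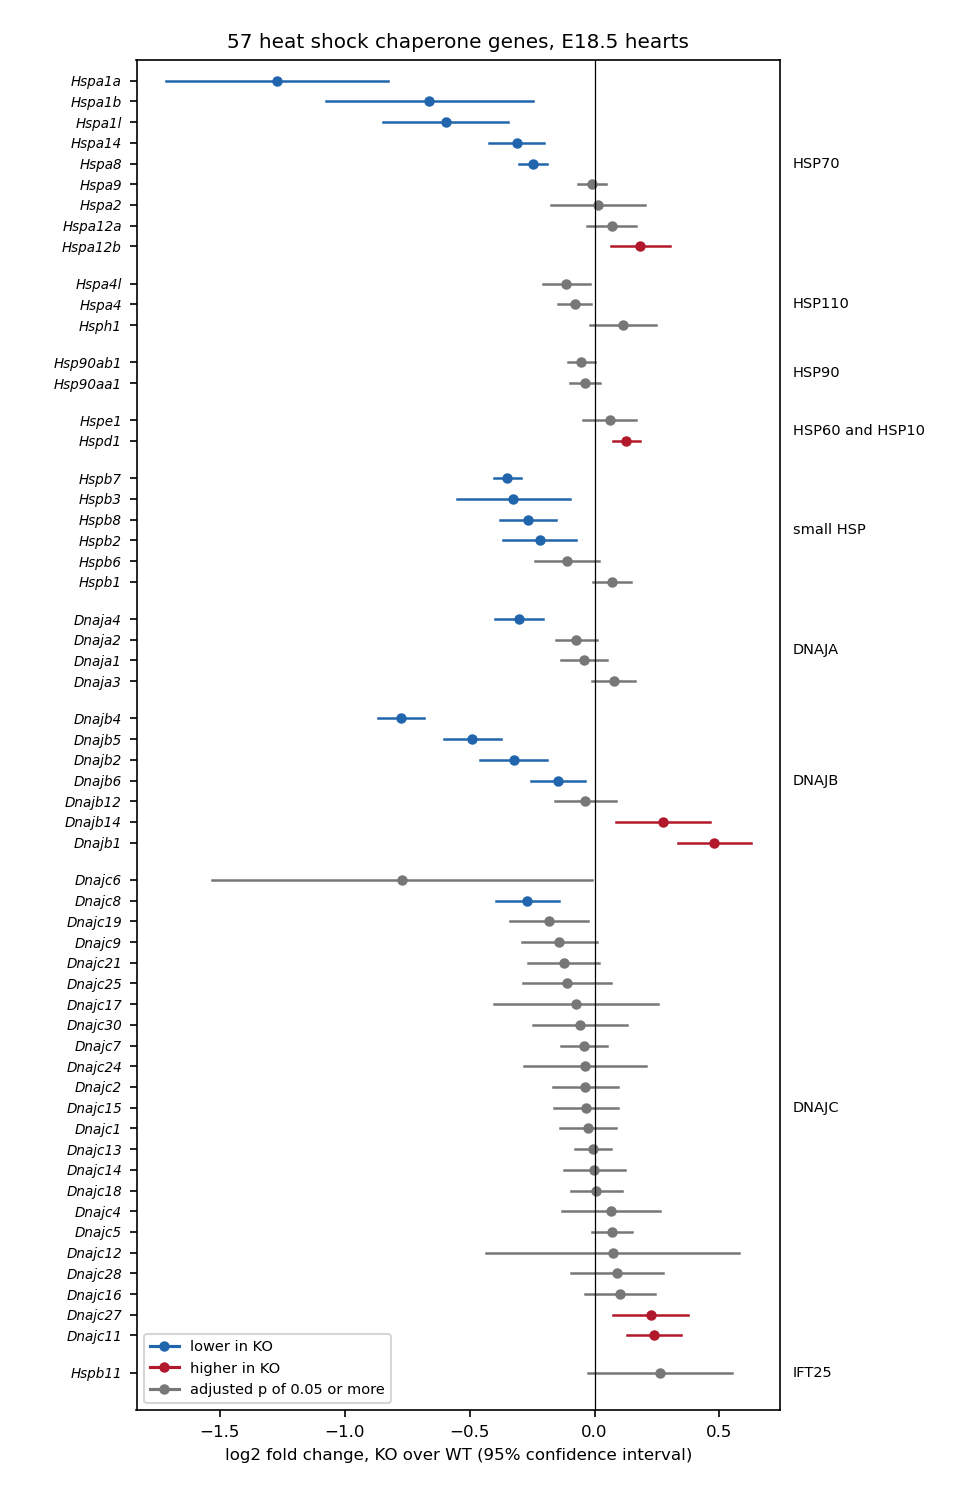
Log2 fold change of KO over WT (points) with its 95% confidence interval (bars) for the 57 members, grouped by family; blue and red mark an adjusted p under 0.05. The HSP70, small heat shock and DNAJB families hold most of the 15 genes that fell, and the HSP110 and HSP90 genes sit close to 0.

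The HSP70 family held the steepest fall, that of *Hspa1a*. Of its 9 genes, 5 fell and 1 rose. *Hspa1a* and *Hspa1b*, which encode nearly the same stress-inducible HSP70, are neighbours on the minus strand of chromosome 17 (chr17:34969190-34972156 and chr17:34956436-34959238, GRCm38). *Hspa1a* was at 3.53, 2.91 and 3.55 CPM in WT and at 1.27, 1.33 and 1.503 CPM in KO. Every KO library was below every WT library by more than the spread within either group. Its log2 fold change was -1.27 (SE 0.22, adjusted p = 5.93e-05). *Hspa1b* was at 4.05, 3.01 and 3.42 CPM in WT and 2.07, 2.65 and 1.93 CPM in KO, again with no overlap, and its log2 fold change was -0.66 (SE 0.20, adjusted p = 0.0141). That call rested on single libraries: it was lost without WT a, KO a or KO c, at -0.54, -0.62 and -0.57. In the reference transcripts 62.31% of the 50-base words of *Hspa1b* also occur in *Hspa1a*, so the counting may have split or dropped their shared reads. Of the exon bases of *Hspa1a*, 19.0% overlap *Gm20481* on the opposite strand, so part of the *Hspa1a* reads may belong to that gene. Added together, a step chosen after seeing the data, the pair stood at 7.59, 5.92 and 6.96 CPM in WT and 3.34, 3.98 and 3.44 CPM in KO, a log2 fold change of -0.93 (SE 0.15, adjusted p = 2.78e-05). Both genes are scarce in these hearts, at 106 to 131 counts for the pair in WT libraries and 63 to 64 in KO libraries. The early response genes given above moved with this pair, and their part in its fall was not tested.

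The third gene of this cluster, *Hspa1l*, is an HSP70 best known from testis and lies head to head with *Hspa1a*, 546 bases away. It averaged 8.73 ± 0.841 CPM in WT and 5.78 ± 0.126 CPM in KO (SD, n = 3) and fell by 0.60 on the log2 scale. Of its exon bases 71.9% overlap *Gm10501* on the opposite strand, and whether the counting used strand is not given in the sources used here, so its reads and those of *Gm10501* cannot be told apart. *Hspa8* (chr9:40800984-40810087, plus strand) encodes the constitutive HSP70 of the cytosol and was the most abundant HSP70 message per exon length. Of its 50-base words 38.58% also occur elsewhere, mostly in the pseudogenes Gm15459 and Gm8355, so its level and its share of the summed difference depend on how such reads were counted. It was at 978, 985 and 991 CPM in WT and 850.0, 792 and 849 CPM in KO. The WT libraries lay within a few percent of each other, and the highest KO library was below all of them. Its log2 fold change was -0.25 (SE 0.027, adjusted p = 9.01e-08), and its mean level fell by 154 CPM to 84.3% of that in WT. *Hspa14*, which encodes an HSP70 relative that sits on ribosomes, was at 54.0, 57.8 and 54.1 CPM in WT and 44.7, 42.9 and 46.2 CPM in KO, a log2 fold change of -0.31 (adjusted p = 6.43e-05).

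The only HSP70 gene that rose was *Hspa12b*, an atypical member known from endothelial cells. It was at 43.8, 41.0 and 43.4 CPM in WT and 45.4, 50.9 and 49.4 CPM in KO. The groups did not overlap, but the lowest KO library was near the highest WT library. Its log2 fold change of 0.18 (adjusted p = 0.0157) lost the call without WT b, KO b or KO c, at 0.15, 0.15 and 0.17. The endothelial markers went the other way, with 3 of 6 lower and a sum of 1066 to 1071 CPM in WT and 992.9 to 1008 CPM in KO; their part was not tested. Its relative *Hspa12a* and the testis HSP70 *Hspa2* did not pass the test, at log2 fold changes of 0.069 and 0.015.

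Beside the fall of the cytosolic HSP70 genes, none of the 3 HSP110 genes, whose proteins reload HSP70 with ATP, passed the test by edgeR or by DESeq2; 2 of them had an unadjusted p under 0.05 by both tools. *Hspa4* was at 255, 264 and 268 CPM in WT and 252, 249 and 245 CPM in KO, a log2 fold change of -0.080 with an adjusted p of 0.0586 just over the threshold. Its groups did not overlap, and it passed without WT a, at -0.10, in a range of -0.10 to -0.067 over the libraries left out in turn. *Hspa4l*, at -0.11, passed without WT c, at -0.15, in a range of -0.15 to -0.076. *Hsph1*, the heat-inducible HSP110 gene, was at 32.3, 36.9 and 38.8 CPM in WT and 38.9, 39.97 and 37.9 CPM in KO, with overlapping groups and a log2 fold change of 0.11 (adjusted p = 0.183).

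Neither HSP90 gene passed the test. *Hsp90ab1*, the constitutive form, was at 1225, 1257 and 1317 CPM in WT and 1238, 1227 and 1195 CPM in KO. *Hsp90aa1*, the inducible form, was at 332, 328 and 319 CPM in WT and 316, 321 and 316 CPM in KO. Both pairs of groups overlapped. The 95% intervals of the log2 fold changes ran from -0.11 to 0.00022 for *Hsp90ab1* and from -0.10 to 0.024 for *Hsp90aa1*. Neither had an unadjusted p under 0.05, by edgeR or DESeq2, though *Hsp90ab1* passed the adjusted threshold without WT a, at -0.08, in a range of -0.078 to -0.026 over the libraries left out in turn. Of the 50-base words of *Hsp90aa1*, 47.49% also occur in pseudogene copies.

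Among the 6 small heat shock genes, which include several that are expressed mainly in muscle, 4 fell and none rose; none had an unadjusted p under 0.05 in the upward direction by edgeR or DESeq2. *Hspb7* (chr4:141420779-141425311, plus strand) encodes a heart and muscle protein of the thin filament and was second only to *Hsp90ab1* in level per exon length. It was at 1099, 1089 and 1153 CPM in WT and 871, 866 and 885 CPM in KO. The KO libraries formed a narrow band well under the WT libraries. Its log2 fold change was -0.35 (SE 0.026, adjusted p = 3.40e-11), and its mean level fell by 239.6 CPM, more than that of any other member. *Hspb8*, whose protein works with BAG3 in clearing damaged filament proteins, fell by 0.27 on the log2 scale. *Hspb2* and *Hspb3*, which encode partners in a muscle complex, fell by 0.22 and 0.32. These calls were less firm: *Hspb2* lost it with DESeq2 and without WT a, WT b or KO a, at -0.19, -0.22 and -0.17, and *Hspb3* with DESeq2 and without WT a or KO a, at -0.30 and -0.18. With DESeq2, only *Hspb7* and *Hspb8* remained called in this family.

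*Hspb1* (HSP27), which is made in most cell types and is heat-inducible, did not fall with the muscle genes. It was at 158, 161 and 173 CPM in WT and 170.4, 176 and 170.1 CPM in KO, where the WT c value overlapped the KO range, and its log2 fold change was 0.070 (adjusted p = 0.163). Of its 50-base words 48.83% also occur in the pseudogene Hsp25-ps1. *Hspb6* was at a log2 fold change of -0.11 (adjusted p = 0.189). It passed without WT a, at -0.17, but ran up to -0.00062 (adjusted p = 0.994) with another library left out. *Hspb2* shares 30.2% of its exon bases with *Cryab* on the opposite strand, a small heat shock gene outside the name rule, which averaged 405 ± 25.1 CPM in WT and 333 ± 3.34 CPM in KO and fell by 0.28 on the log2 scale (adjusted p = 5.55e-07). *Hspb2* averaged only 26.9 CPM in WT, so part of its reads and of its fall may belong to *Cryab*. The cardiomyocyte markers, of which 5 of 7 fell, moved with the muscle-expressed genes of this family, with log2 fold changes from -0.46 to 0.05. Their part in the fall of the small heat shock genes was not tested.

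**Figure D2:**
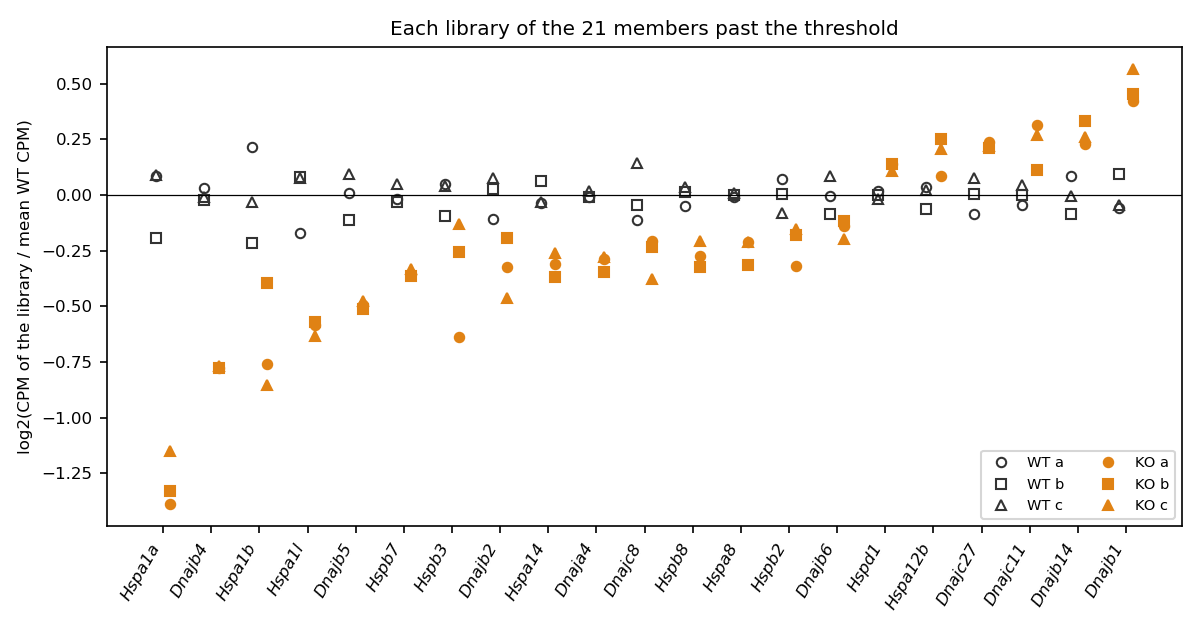
Log2 ratio of each library's CPM to the WT mean for the 21 members past the threshold, ordered by fold change, with WT libraries open and KO libraries filled. The KO libraries of *Dnajb4* lie together at 56.0 to 56.5 CPM, while those of *Hspb3* spread from 8.37 to 11.9 CPM.

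The DNAJB class showed movement in both directions, with 4 of 7 genes lower and 2 higher. *Dnajb1*, *Dnajb4* and *Dnajb5* encode close relatives of the HSP40 type that start the cycle of cytosolic HSP70. *Dnajb4* (chr3:152178511-152210302, minus strand) was at 98.0, 94.6 and 95.5 CPM in WT and 56.0, 56.0 and 56.5 CPM in KO. The 3 KO libraries were almost equal, and KO hearts held 58.5% of the WT level. The log2 fold change was -0.77 (SE 0.044, adjusted p = 1.49e-13), the smallest adjusted p among the 57 genes. *Dnajb5* (chr4:42949814-42959425, plus strand) was at 64.5, 59.3 and 68.3 CPM in WT and 45.5, 45.0 and 46.0 CPM in KO, a log2 fold change of -0.49 (SE 0.055, adjusted p = 1.09e-07). *Dnajb1* (chr8:83608193-83612653, plus strand), the heat-inducible HSP40, went the other way. It was at 20.1, 22.4 and 20.3 CPM in WT and 28.0, 28.7 and 31.0 CPM in KO, with each KO library above each WT library. Its log2 fold change was 0.48 (SE 0.071, adjusted p = 8.73e-06), or 1.39-fold, the largest rise among the members. All 3 calls held with each library left out in turn and with each other scaling, test or filter tried. Of the 3, only *Dnajb4* changed by at least 1.5-fold.

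Of the other DNAJB genes, *Dnajb2*, known from neurons and muscle for delivering clients to the proteasome, was at 43.5, 47.7 and 49.4 CPM in WT and 37.5, 41.0 and 34.0 CPM in KO, a log2 fold change of -0.32 (adjusted p = 0.000398). *Dnajb6*, which holds back aggregation and is mutated in a limb-girdle muscular dystrophy, fell by only 0.15 on the log2 scale (adjusted p = 0.034). That call was lost with DESeq2, with upper-quartile scaling, at -0.13, and without any 1 library other than WT b, at -0.16 to -0.11. *Dnajb14*, a J-protein of the ER membrane, was at 12.4, 11.02 and 11.6 CPM in WT and 13.7, 14.7 and 14.01 CPM in KO, a log2 fold change of 0.27 (adjusted p = 0.0233); it lost the call with DESeq2 and without WT b, KO b or KO c, at 0.23, 0.25 and 0.28. Its partner *Dnajb12* did not pass, at -0.037.

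In the DNAJA class, *Dnaja1*, a farnesylated J-protein of the cytosol, was at 89.2, 83.6 and 91.7 CPM in WT and 83.5, 85.9 and 87.3 CPM in KO, and its log2 fold change of -0.041 did not pass the test. *Dnaja4* alone fell. It was at 73.6, 73.5 and 74.9 CPM in WT and 60.6, 58.2 and 61.0 CPM in KO, with close libraries in both groups, and its log2 fold change was -0.30 (SE 0.046, adjusted p = 1.35e-05). Of its exon bases 44.1% overlap *Wdr61* on the opposite strand, so part of its reads may belong to that gene. *Dnaja2* had a log2 fold change of -0.074 and the mitochondrial *Dnaja3* of 0.076.

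The 23 DNAJC genes, whose proteins share little beyond the J-domain and serve many separate processes, moved little, with 1 lower and 2 higher. *Dnajc8*, which encodes a protein of the spliceosome, fell by 0.27 on the log2 scale (adjusted p = 0.0013). *Dnajc27*, which joins a J-domain to a small GTPase, was at 18.4, 19.6 and 20.6 CPM in WT and 23.0, 22.6 and 22.8 CPM in KO, a log2 fold change of 0.22 (adjusted p = 0.0203); it lost the call with DESeq2 and without WT a, WT b, KO a or KO c, at 0.18 to 0.23. The largest estimate of the class that did not pass was -0.77 for *Dnajc6* (auxilin, which strips clathrin from vesicles), at 0.442 to 1.183 CPM, where the 95% interval ran from -1.53 to -0.010. The other 19 uncalled genes of the class had log2 fold changes between -0.18 and 0.10. *Hspb11*, the IFT25 gene, averaged 4.65 ± 0.269 CPM in WT and 5.597 ± 0.385 CPM in KO (SD, n = 3), and its log2 fold change of 0.26 did not pass (adjusted p = 0.163), although its groups did not overlap.

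By location, 14 of the 27 cytosolic members fell and 2 rose (median log2 fold change -0.15). Of the 9 mitochondrial members 0 fell and 2 rose (median 0.06). Of all genes, 15.7% fell and 14.6% rose, and the 9 mitochondrial members are too few to be read against these shares. By edgeR 1 mitochondrial member had an unadjusted p under 0.05 in the lower direction, and by DESeq2 none had. The difference between the locations was not tested, since the members are not replicates. *Hspd1* (chr1:55077835-55088243, minus strand), the HSP60 gene, was at 476, 470.4 and 464 CPM in WT and 517, 518 and 506 CPM in KO. The rise was small, but the libraries of each group lay close together, and the log2 fold change was 0.13 (SE 0.027, adjusted p = 0.000728). Of its 50-base words 39.74% also occur elsewhere, mostly in the pseudogene Hspd1-ps3. *Hspe1*, the HSP10 gene that shares its promoter region head to head with *Hspd1*, was at 76.1, 73.7 and 86.0 CPM in WT and 81.5, 85.1 and 78.8 CPM in KO. Its groups overlapped, with WT c the highest of the 6 libraries, and its log2 fold change was 0.060 (adjusted p = 0.408). *Hspa9* (mortalin), the matrix HSP70 and import motor, was at 648, 665 and 673 CPM in WT and 670.4, 662 and 640.2 CPM in KO, a log2 fold change of -0.0091 with a 95% interval from -0.065 to 0.046. *Dnajc11*, a J-protein of the mitochondrial membrane that takes part in cristae organisation, was at 59.0, 61.0 and 62.9 CPM in WT and 75.9, 65.8 and 73.4 CPM in KO, a log2 fold change of 0.24 (SE 0.053, adjusted p = 0.00108). *Dnajc19*, a part of the import motor whose loss causes a cardiomyopathy in people, was at -0.18 (adjusted p = 0.0728) and passed without WT c or KO b, at -0.21 and -0.25, in a range of -0.25 to -0.11 over the libraries left out in turn.

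The members on a list of heat-responsive genes did not move as 1 block. Of the 11, which include *Hspa8* and *Hsp90ab1* although both are made mainly without stress, *Hspa1a*, *Hspa1b* and *Hspa8* fell, *Dnajb1* and *Hspd1* rose, and *Hsph1*, *Hsp90aa1*, *Hsp90ab1*, *Hspb1*, *Hspe1* and *Dnaja1* did not pass. With *Hspa8* and *Hsp90ab1* set aside, *Hspa1a* and *Hspa1b* fell and *Dnajb1* and *Hspd1* rose. The library WT c bears on this count. Without it, *Hspe1*, *Hspb1*, *Hsph1* and *Dnaja3* also passed as higher in KO, at log2 fold changes of 0.12, 0.11, 0.16 and 0.11, so that 10 members rose and 16 fell; of the 11 genes on the list 5 then rose and 3 fell, and of the mitochondrial members 4 rose and 1 fell. In all genes, 2306 fell and 2013 rose without that library, beside 2168 and 2011 with it. *Hspe1*, *Hspb1*, *Hsph1* and *Dnaja3* did not pass with any other library left out. What sets WT c apart was not tested. The HSP70 falls and the *Dnajb1* rise did not depend on it, since *Hspa1a*, *Hspa1b*, *Hspa8* and *Dnajb1* kept their calls without it.

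**Figure D3:**
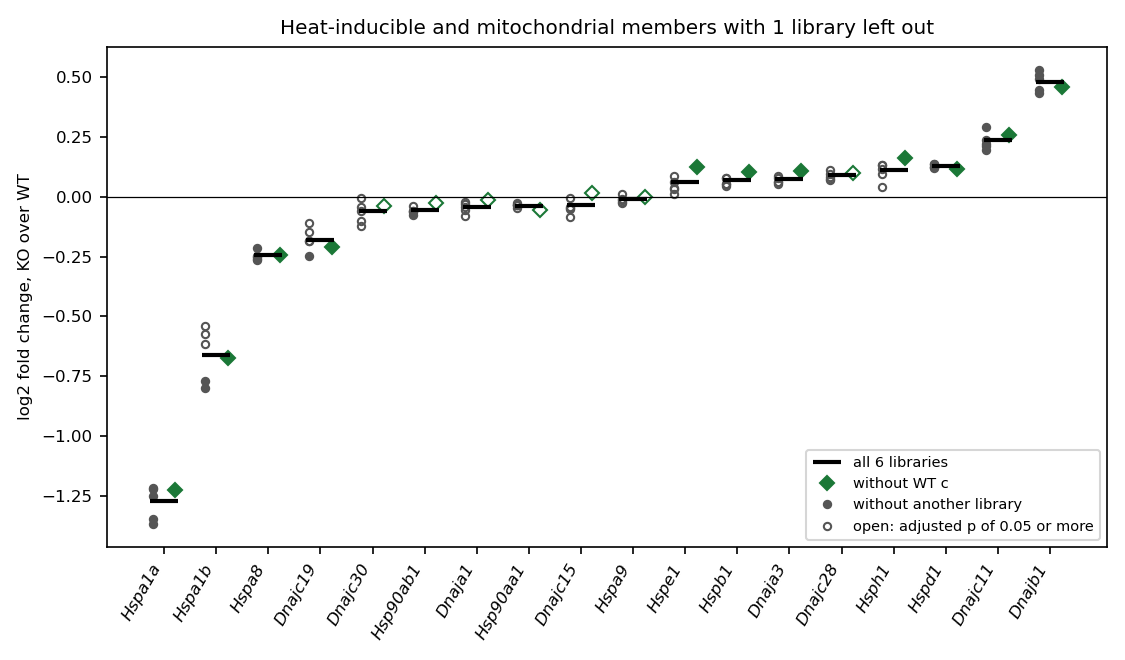
Log2 fold change of the 11 heat-inducible and 9 mitochondrial members (18 genes, as *Hspd1* and *Hspe1* are in both) with all 6 libraries (bar), without WT c (diamond) and without each other library (circles); filled symbols have an adjusted p under 0.05. Without WT c, *Hspe1*, *Hspb1*, *Hsph1* and *Dnaja3* pass on the higher side at 0.11 to 0.16.

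Ordered by level per kilobase (kb) of exons, the members spanned from 422 CPM per kb for *Hsp90ab1* to 0.166 CPM per kb for *Dnajc6* in WT hearts. *Hsp90ab1* (409 to 439 CPM per kb in the WT libraries) and *Hspb7* (393 to 416) overlapped in their ranges. Below them came *Hspa8* (227 to 231) and *Hspd1* (176 to 180), which did not overlap, and then *Hspb1* (154 to 168) and *Hspa9* (150.4 to 156), which did. In KO hearts *Hspb7* fell to 316 CPM per kb, clear of *Hsp90ab1* at 407 CPM per kb. *Hspa8* at 184 to 198 CPM per kb and *Hspd1* at 192 to 196 then overlapped. By this measure *Dnajb4* and *Dnajb1* changed order, with *Dnajb4* at 10.95 CPM per kb in WT and 6.40 in KO, and *Dnajb1* at 6.53 in WT and 9.12 in KO. The length used joins all annotated exons of a gene (8.76 kb for *Dnajb4*, 3.2 kb for *Dnajb1*) and may differ from the transcripts expressed here. The order of genes per kb depends on that length. By CPM alone *Dnajb4* stayed above *Dnajb1* in KO hearts, with means of 56.1 and 29.2 CPM. The inducible *Hspa1a* and *Hspa1b* stood at 1.12 and 1.25 CPM per kb in WT, near the bottom of the list.

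**Figure D4:**
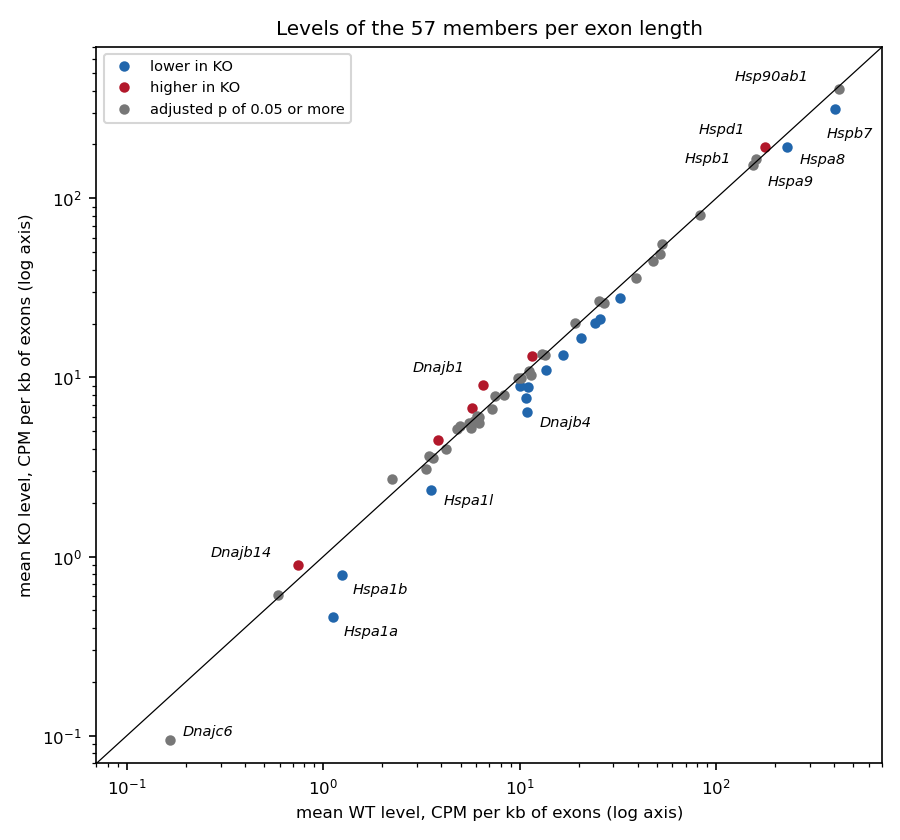
Mean level per kb of exons in KO against WT hearts for the 57 members, on log axes, with the line of equal levels. Most points lie close to the line, *Hspa1a*, *Hspa1b*, *Hspa1l* and *Dnajb4* lie below it, and *Dnajb1* (6.53 CPM per kb in WT, 9.12 in KO) lies above it.

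The partners of these chaperones were counted from 5 lists. On the list of 30 co-chaperones, which also holds the small heat shock gene *Cryab*, 7 genes fell and 1 rose. *Cryab*, *Fkbp5* and *Bag1* had the smallest adjusted p among those lower. *Fkbp5*, a glucocorticoid-responsive partner of HSP90, averaged 48.2 ± 0.484 CPM in WT and 38.9 ± 1.82 CPM in KO and *Bag1*, a nucleotide exchange factor of HSP70, averaged 89.9 ± 2.82 CPM in WT and 79.3 ± 1.08 CPM in KO (SD, n = 3). Their log2 fold changes were -0.30 and -0.18 (adjusted p = 0.000124 and 0.00219). *Tomm70a*, the outer membrane receptor to which cytosolic HSP70 and HSP90 hand mitochondrial preproteins, rose by 0.11 on the log2 scale. Of 5 heat shock factor genes and their regulators, only *Hsf2* passed, at a log2 fold change of -0.22 (adjusted p = 0.00989), and without KO c it no longer did. *Hsf1*, the main stress-responsive factor, was at 0.10 (adjusted p = 0.175). Of 14 genes of the cytosolic chaperonin and prefoldin, *Cct2* alone passed, at -0.13. Of 14 mitochondrial partners and proteases, *Trap1*, the mitochondrial HSP90, fell (-0.10, adjusted p = 0.0473) and *Grpel2* and *Afg3l2* rose (0.21 and 0.10). No gene of this list fell with upper-quartile scaling, DESeq2, voom, the exact or likelihood ratio test, or at least 10 counts in every library. The same held with any library other than WT a left out. None rose with DESeq2, or without KO a or KO c. Of 7 ER chaperones, the HSP70 gene *Hspa5* and the HSP90 gene *Hsp90b1* fell, by 0.21 and 0.09 on the log2 scale. Only 1 gene of this list fell with upper-quartile scaling, and likewise without WT b or KO b. In all, 12 of the 70 genes of these lists fell, *Cryab* included, and 3 rose. The median log2 fold change of the 70 genes was -0.012, and none of the 15 changed by 1.5-fold. Beside the 15.7% of all genes that fell and 14.6% that rose, the number lower is near the background and the number higher is below it, and the single lists are too short to be read against these shares. With DESeq2, 10 fell and 0 rose, where 3 had an unadjusted p under 0.05 in the upward direction. By that test 1639 of all genes fell and 1362 rose. Without WT b, KO a or KO c, 1, 0 and 1 gene of these lists rose, beside 1581, 1547 and 1479 of all genes.

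**Figure D5:**
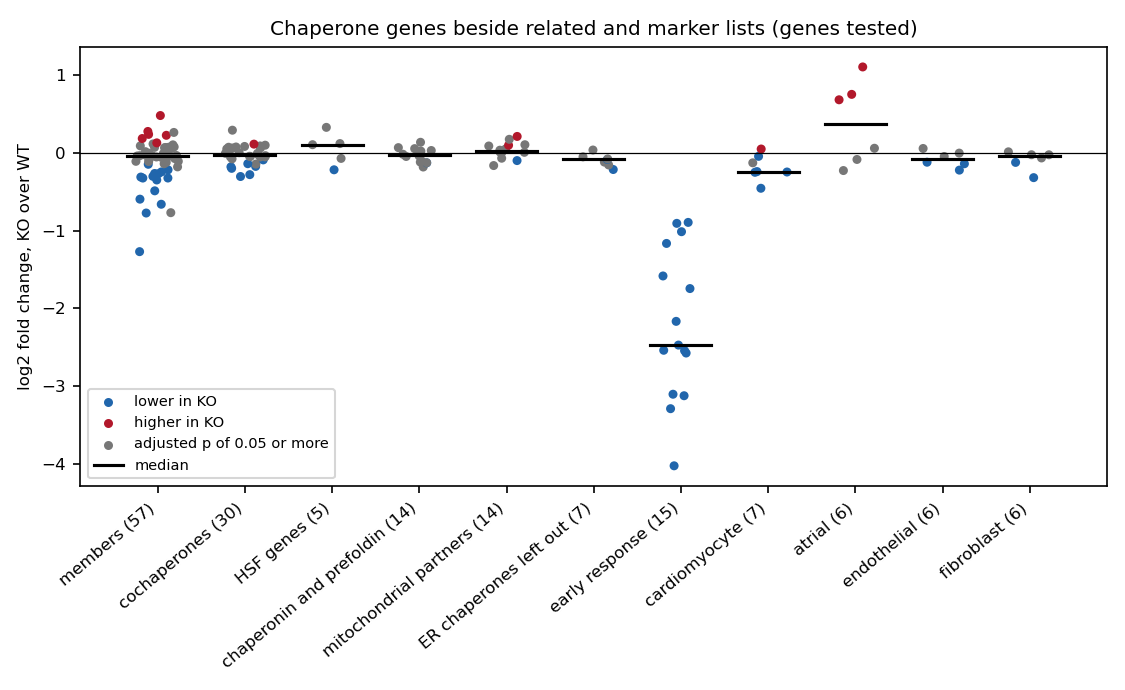
Log2 fold change of KO over WT for each tested gene of the members, the 5 related lists and marker lists, with the median as a bar and the number of genes in parentheses. The early response genes range from -4.02 to -0.89, while the medians of the chaperone lists lie between -0.09 and 0.10.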

How the data were processed

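The authors trimmed reads with cutadapt 1.18, aligned them with HISAT2 and assembled them with StringTie on mm10 (the submitters' processing notes and the study's methods); the counting program and its use of strand are not given in the sources used here. The deposited values are raw counts, 1 row per gene symbol, for 3 WT and 3 KO libraries, which the methods call biological replicates. Columns carry no replicate numbers, so libraries are named a, b and c in column order. Columns of the authors' own comparison (log2 fold changes, average level, p-values and false discovery rates) were not used.

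Counts were tested in R 4.3.3 with edgeR 4.0.16 over the whole table: filterByExpr (13804 genes kept, 5 left out), TMM scaling, and a quasi-likelihood test of genotype without covariates, with p-values adjusted by Benjamini-Hochberg. Positions, exon lengths and shared 50-base words come from GENCODE on GRCm38, promoters from RefSeq on GRCm38.p6. Values in every library are given for 14 textbook chaperones and for the 8 members with the smallest adjusted p in each direction; other genes past the threshold are named by fold change, and from each related list at most 3 in each direction. *Hsf1*, *Hspa12a*, *Hspa2*, *Hspa4l*, *Hspb6*, *Dnaja2*, *Dnaja3*, *Dnajb12*, *Dnajc6*, *Dnajc19* and *Hspb11* were named after their values were seen. So were the members listed at the end because their sign turned, apart from the textbook chaperone *Hspa9*. The members and gene lists were chosen with earlier results of these data known.

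Alternatives were RLE and upper-quartile factors, TMM without *Rn45s* and *Ttn*, limma 3.58.1 voom, the exact and the likelihood ratio test of edgeR, DESeq2 1.42.0, no filter, at least 10 counts in every library, X and Y genes left out, a 1.5-fold limit, and each library left out in turn. Tested on simulated counts modelled on this comparison, 97, 171 and 195 of 200 genes changed by 1.2, 1.5 and 2-fold were recovered. The simulation gave every gene the same spread between libraries (dispersion) and changed only those 200 genes. Its rates may therefore differ from those in the real data. Count floors cover counting error only. Figures used matplotlib 3.10.9 under Python 3.11.15.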

Additional observations from a re-analysis of the deposited data

How the results depend on the processing

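Of the 21 called members, 14 (11 lower, 3 higher) kept call and direction in all 16 alternative settings, which do not count the 1.5-fold limit. The 7 others are given with their values in the report, and 0 reversed. Among the 36 not called, 9 passed when 1 library was left out. The members counted lower were 15, and 12 to 15 with another scaling, test or filter; leaving out each library gave 11 to 16. The members counted higher were 6, and 4 to 6 with another scaling, test or filter; leaving out each library gave 3 to 10, with 3 without WT b or KO c and 10 without WT c. Requiring 1.5-fold left 4 lower and 0 higher. The related lists gave 12 lower and 3 higher; leaving out each library gave 8 to 13 and 0 to 3 (1 higher without WT b or KO c, 0 without KO a), DESeq2 gave 0 higher, and requiring 1.5-fold left 0 in both directions. Of all genes, 2011 rose by edgeR with all 6 libraries and 1362 by DESeq2. Without WT b, KO a, KO c or WT c, 1581, 1547, 1479 and 2013 of all genes rose. *Pkm* stayed between -1.30 and -1.26. No paired analysis was possible because a column names only its genotype and no replicate, and no pair of libraries agreed within sampling noise, so none was summed. Apart from smaller groups when a library is left out, the cause was not tested.

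The sign turned in 12 members, all close to 0 and not called. With upper-quartile factors, which move the median of all genes from 0.0017 to 0.02, *Dnajc13* went to 0.013, *Dnajc14* to 0.018 and *Hspa9* to 0.0095; with at least 10 counts in every library *Dnajc14* went to 0.0012. Leaving out each library gave -0.23 to 0.27 for *Dnajc12*, -0.027 to 0.0087 for *Dnajc13*, -0.039 to 0.052 for *Dnajc14*, -0.083 to 0.017 for *Dnajc15*, -0.23 to 0.15 for *Dnajc17*, -0.016 to 0.034 for *Dnajc18*, -0.065 to 0.014 for *Dnajc2*, -0.16 to 0.033 for *Dnajc24*, -0.042 to 0.17 for *Dnajc4*, -0.080 to 0.018 for *Dnajc7*, -0.067 to 0.065 for *Hspa2* and -0.025 to 0.010 for *Hspa9*. With 3 libraries a group at this depth, 97 of 200 genes simulated at 1.2-fold, with the same dispersion for every gene, were recovered. Depth, library number and spread were not varied separately, and of the 36 members not called 26 have a 95% interval within 1.2-fold.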
